A study of Mus musculus with 8 samples.

Results

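Prmt5, the gene deleted in the knockout cells, and 4 genes for proteins that bind the PRMT5 enzyme were followed here through mouse embryonic stem cells. The members were the rows named Prmt5, Wdr77, Clns1a, Riok1 and Coprs, 5 of the 38991 gene identifiers in each library's table, and each symbol matched 1 identifier. RNA was sequenced from 4 iPKO libraries, the Prmt5 knockout, and from 4 iPHet libraries, the control. Both genotypes were male C57BL/6 stem cells derived from blastocysts of embryonic day 3.5 on feeder fibroblasts, then kept in 2i ground state medium. All cells, controls included, received 2 µM 4-hydroxytamoxifen for 48 hours and then fresh medium. The drug served to induce the Prmt5 deletion, and the recombinase that responds to it is not named in the labels. The labels name 1 line per genotype for most experiments (PC4 for iPKO and PC1 for iPHet), so genotype and line cannot be told apart. They give neither the deleted exons nor the alleles that the control carries. Whether the 4 libraries of a genotype are separate cultures is not stated, and p-values therefore cover library-to-library spread only, which may be technical.

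PRMT5 is the main enzyme that places symmetric dimethyl marks on arginine, a mark found on histones, on Sm proteins of the splicing machinery and on many RNA-binding proteins. It works in a ring with Wdr77, also called MEP50, a WD-repeat protein that presents substrates to it. Adaptors then choose the substrates. Clns1a encodes pICln, which brings in Sm proteins. Riok1 encodes a kinase-related adaptor that takes the place of pICln and brings in nucleolin. Coprs encodes COPR5, which directs the enzyme to histones in the nucleus. The series set out to learn whether the Sm protein methyltransferase is needed when primordial germ cells are specified.

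The values were FPKM, fragments corrected for transcript length and library size, as deposited by the authors. They summed to between 411827 and 417539 in the iPKO libraries and to between 417672 and 458856 in the iPHet libraries. Within iPHet, libraries 1 and 3 summed to 458856 and 458690, and libraries 2 and 4 to 417672 and 421412. The depth in reads is unknown. Within a genotype, libraries 1 and 3 and libraries 2 and 4, called parity pairs here, were much closer to each other than other libraries were. Over 8141 protein-coding genes that averaged 5 FPKM or more, the root mean square log2 difference was 0.16 to 0.18 within such a pair and 0.38 to 0.42 between other libraries of a genotype. Each member is therefore also given for odd-numbered and even-numbered libraries separately. The markers of embryonic stem cells were strongly expressed in both genotypes, summing to between 1130 and 1249 FPKM in iPKO and to between 1132 and 1387 FPKM in iPHet over 6 genes. Esrrb did not overlap between the genotypes (214 to 233 FPKM in iPKO and 237 to 276 FPKM in iPHet), while the others did. The 8 markers of feeder fibroblasts summed to between 1.22 and 2.05 FPKM in iPKO and to between 1.63 and 2.81 FPKM in iPHet. Of these, 7 stayed under 1 FPKM in every library, and Lum and Postn were listed at 0 throughout. The 3 trophoblast markers summed to between 10.2 and 17.0 FPKM in iPKO and to between 6.35 and 10.6 FPKM in iPHet. Most of that sum was Eomes (9.74 to 14.9 FPKM in iPKO and 5.93 to 9.45 FPKM in iPHet), while Cdx2 stayed at or under 0.447 FPKM in iPKO and 0.559 FPKM in iPHet, and the part of such cells in the results was not tested. Primitive endoderm markers summed to between 2.33 and 4.02 FPKM in iPKO and between 3.21 and 3.82 FPKM in iPHet. Neuroectoderm markers summed to at most 2.60 FPKM in iPKO and 1.58 FPKM in iPHet. Among them Sox1 did not overlap (1.37 to 2.06 FPKM in iPKO and 0.896 to 1.28 FPKM in iPHet). Esrrb, Eomes and Sox1 thus had genotypes that did not overlap, as did 25.1% of the 12462 genes tested below. Mesoderm markers summed to at most 0.632 FPKM in iPKO and 0.782 FPKM in iPHet. Bulk values cannot tell fewer cells of a type from less RNA per cell.

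Prmt5 had 11.8, 14.5, 12.4 and 15.0 FPKM in iPKO libraries 1 to 4, against 52.8, 70.8, 54.3 and 72.2 FPKM in iPHet libraries 1 to 4. Every iPKO library lay far under every iPHet library, and within both genotypes the even-numbered libraries were the higher pair. The iPKO mean was 13.4 ± 1.56 FPKM and the iPHet mean 62.5 ± 10.4 FPKM (SD, n = 4 each). The gene (ENSMUSG00000023110) lies on the minus strand of chromosome 14, between 54507187 and 54517525 (mm10), and no other gene of the tables overlaps it. In iPKO 21.5% of the control level was left, 22.6% among odd-numbered and 20.6% among even-numbered libraries. A gene-level value counts reads from all exons, those outside any deleted part included.

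Differences were tested with limma on log2(FPKM + 1) over the genes whose mean reached 1 FPKM in iPKO or in iPHet, and a gene was called at a Benjamini-Hochberg adjusted p under 0.05. Prmt5 fell by 2.13 on that scale (SE 0.13, limma adjusted p = 0.000171, 95% interval from -2.43 to -1.83), and in plain FPKM it was 4.66-fold lower. Of 12462 tested genes 15.8% were called in either direction, 6.3% higher and 9.53% lower. Among 1426 called protein-coding genes that averaged 5 FPKM or more, Prmt5 ranked 1 by the size of its fall, and among all 8141 such genes, called or not, it ranked 2. Over all 12462 tested genes it ranked 25 by fall and 69 by absolute change. An exact permutation test, two-sided, returned p = 0.0286, which is the lowest value possible with 4 against 4. With each parity pair averaged, which leaves 2 values per genotype, the same log2 change had a limma adjusted p of 0.191, and of 0.0809 with an odd/even term.

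The 250 bases before the RefSeq start of Prmt5 are shown because Prmt5 is the member whose RNA fell. They lie on the minus strand at chr14:54517471-54517720 (GRCm38.p6), overlap the first bases of the interval that the tables give, and capitals mark CCAAT on either strand.
Prmt5: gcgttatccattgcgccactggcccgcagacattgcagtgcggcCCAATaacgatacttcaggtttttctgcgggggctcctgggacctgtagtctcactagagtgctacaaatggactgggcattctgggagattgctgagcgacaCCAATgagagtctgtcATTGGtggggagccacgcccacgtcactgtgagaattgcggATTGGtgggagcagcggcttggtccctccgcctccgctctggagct
The stretch holds CCAAT 4 times, counting both strands. Of 27025 gene starts with a window of the same length, 34.5% hold it at least 1 time. The search covered both strands for CCAAT, for the TATA box as TATAAA, and for TCGCGA. No matches overlapped, and neither TATAAA nor TCGCGA was found in this window.

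**Figure D1:**
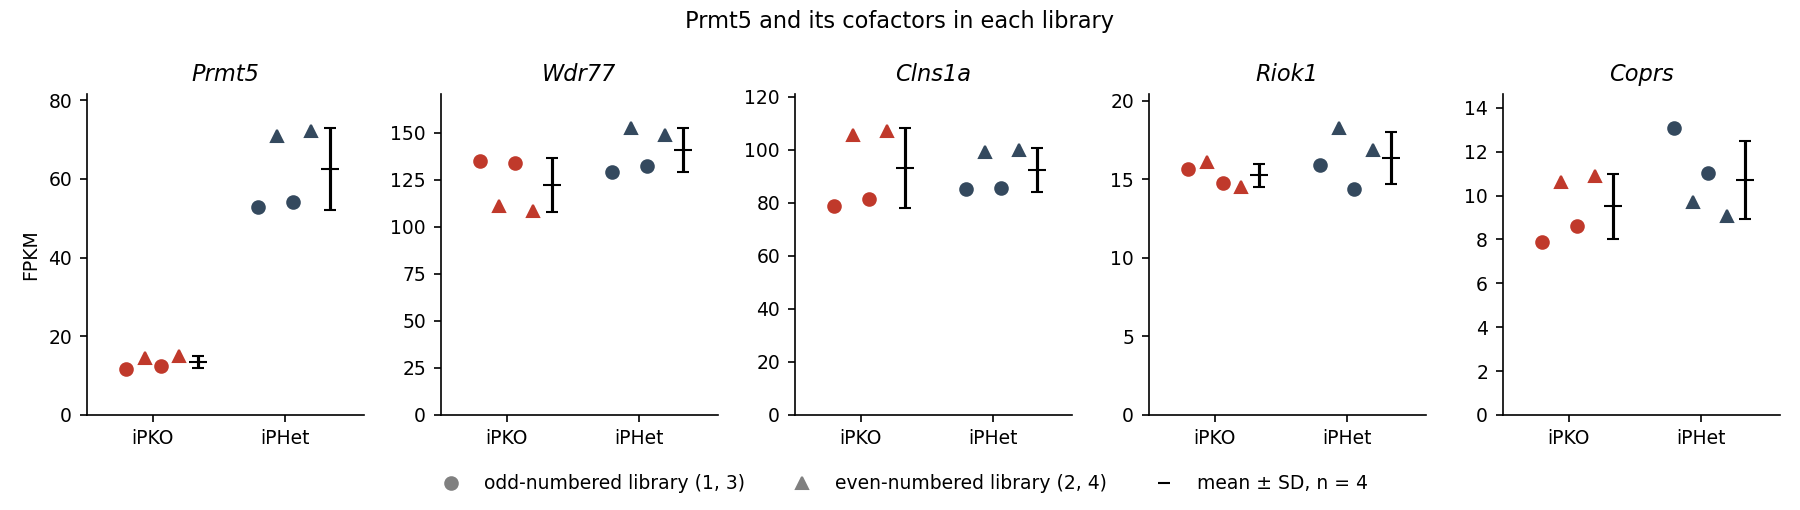
FPKM of Prmt5 and its 4 cofactors in each of the 4 iPKO (red) and 4 iPHet (dark) libraries, circles for odd and triangles for even numbers, with the mean ± SD beside them. Prmt5 sits between 11.8 and 15.0 FPKM in iPKO and between 52.8 and 72.2 FPKM in iPHet, while the 4 cofactors overlap between the genotypes.

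Wdr77, the partner that forms the ring with PRMT5, had the highest FPKM of the members in every library. In iPKO 2 and 4 it was only narrowly over Clns1a, which had 105 and 107 FPKM there. Wdr77 had 135, 111, 134 and 108 FPKM in iPKO libraries 1 to 4, against 129, 153, 132 and 149 FPKM in iPHet libraries 1 to 4. The genotypes overlapped, since the odd-numbered iPKO libraries lay among the iPHet values and the even-numbered ones under all of them. The means were 122 ± 14.4 FPKM in iPKO and 141 ± 11.7 FPKM in iPHet (SD, n = 4 each). The log2 change was -0.21 (SE 0.10, limma adjusted p = 0.198, 95% interval from -0.44 to 0.02), so a fall of the size seen for Prmt5 lies outside the interval. The exact two-sided permutation test gave p = 0.171. In the odd-numbered libraries the log2 change was 0.04, and in the even-numbered ones -0.45.

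The tables place Wdr77 (ENSMUSG00000000561) on the plus strand of chromosome 3, between 105959369 and 105984600 (mm10). Its first part overlaps the first part of Atp5f1, a subunit gene of mitochondrial ATP synthase on the minus strand. Its far part overlaps Ovgp1, while the GENCODE gene model of Wdr77 ends at 105970037, before Ovgp1 begins. The strand setting is not given in the sources used here, so reads of the part shared with Atp5f1 cannot be told apart. Ovgp1 lies on the plus strand like Wdr77, so strand would not separate their reads. GENCODE also lists Gm42890, a processed transcript on the plus strand from 105959503 to 105984600, where the Wdr77 interval ends too. Gm42890 has no value of its own here, and its part in the Wdr77 values was not tested. Atp5f1 had 103, 127, 98.3 and 121 FPKM in iPKO libraries 1 to 4, against 127, 105, 122 and 101 FPKM in iPHet libraries 1 to 4. Its iPKO values lay under its iPHet values in the odd-numbered libraries and over them in the even-numbered ones, and its part in the Wdr77 values was not tested. Ovgp1 averaged 0.551 FPKM in iPKO and 0.244 FPKM in iPHet. Wdr77 also lay above the authors' own upper confidence bound in all 8 libraries. The bound was 122 FPKM in iPKO 1 and 119 FPKM in iPHet 1. In iPKO 2 and 4 the bounds of 102 and 101 FPKM lay under the Clns1a values. Within a single library, 17.8% to 22.4% of genes at 5 FPKM or more lay above their bound. The share of genes above it in all 8 libraries was not computed.

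The 250 bases before the RefSeq start of Wdr77 are shown because they lie within the annotated interval of Atp5f1, the overlap just described. They are on the plus strand at chr3:105959248-105959497 (GRCm38.p6) and run past 105959369, where the interval given for Wdr77 begins. Capitals mark TCGCGA, which reads the same on both strands.
Wdr77: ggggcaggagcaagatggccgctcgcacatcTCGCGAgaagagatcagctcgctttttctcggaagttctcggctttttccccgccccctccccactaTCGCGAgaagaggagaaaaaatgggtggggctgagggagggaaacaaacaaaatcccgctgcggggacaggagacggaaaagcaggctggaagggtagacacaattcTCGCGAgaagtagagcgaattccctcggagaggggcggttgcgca
It occurs 3 times here, and 2.14% of the 27025 gene starts hold it at least 1 time. Neither CCAAT nor TATAAA was found in this window. Of the members 4 matched a RefSeq start, and the windows of Clns1a and Riok1 held none of the 3 sequences searched.

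Clns1a, the adaptor for Sm proteins, was the most abundant adaptor. It had 78.6, 105, 81.4 and 107 FPKM in iPKO libraries 1 to 4, against 85.0, 99.0, 85.6 and 99.9 FPKM in iPHet libraries 1 to 4. The iPKO values lay on both sides of the iPHet range, under it in the odd-numbered and over it in the even-numbered libraries. The means were 93.1 ± 15.1 FPKM in iPKO and 92.4 ± 8.20 FPKM in iPHet (SD, n = 4 each). The log2 change was 0.00052 (SE 0.12, limma adjusted p = 0.998, 95% interval from -0.28 to 0.28). The sign of so small a value turned without iPHet 1 or 3 or without iPKO 2 or 4. Clns1a (ENSMUSG00000025439) lies on the plus strand of chromosome 7 from 97696634 to 97718879, and the antisense gene Gm15623, which overlaps its start, averaged 0.765 FPKM in iPKO and 0.614 FPKM in iPHet.

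Riok1, the adaptor for nucleolin, was the member with the smallest SD in iPKO. It had 15.6, 16.1, 14.8 and 14.5 FPKM in iPKO libraries 1 to 4, against 15.9, 18.3, 14.4 and 16.9 FPKM in iPHet libraries 1 to 4. All iPKO values lay inside the iPHet range. The means were 15.2 ± 0.724 FPKM in iPKO and 16.4 ± 1.64 FPKM in iPHet (SD, n = 4 each). The log2 change was -0.09 (SE 0.08, limma adjusted p = 0.475, 95% interval from -0.27 to 0.09). Riok1 (ENSMUSG00000021428) lies on the plus strand of chromosome 13 from 38036989 to 38061433. Its start overlaps Cage1, which averaged 0.117 FPKM in iPKO and 0.0514 FPKM in iPHet.

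Coprs, the adaptor for histones, was the least abundant member. It had 7.90, 10.6, 8.59 and 10.9 FPKM in iPKO libraries 1 to 4, against 13.1, 9.71, 11.03 and 9.05 FPKM in iPHet libraries 1 to 4. The genotypes overlapped, and the order of the parities was opposite in the 2 genotypes, with even above odd in iPKO and odd above even in iPHet. The means were 9.50 ± 1.48 FPKM in iPKO and 10.7 ± 1.78 FPKM in iPHet (SD, n = 4 each). The log2 change was -0.16 (SE 0.14, limma adjusted p = 0.473, 95% interval from -0.47 to 0.16). Coprs (ENSMUSG00000031458) lies on the minus strand of chromosome 8 from 13884788 to 13890271, with no overlapping gene in the tables.

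Of the 5 members, Prmt5 alone was called, against 15.8% of all tested genes. Prmt5 alone had genotypes that did not overlap, which 25.1% of all tested genes had. A single gene of 5 is near both shares, and Prmt5 is the deleted gene, so these counts are no result about the set. The exact two-sided permutation tests gave p = 1.0 for Clns1a and p = 0.314 for both Riok1 and Coprs. In mean FPKM the order was Wdr77, Clns1a, Riok1, Prmt5 and Coprs in iPKO, and Wdr77, Clns1a, Prmt5, Riok1 and Coprs in iPHet. In iPKO the ranges of Riok1 (14.5 to 16.1 FPKM) and Prmt5 (11.8 to 15.0 FPKM) overlapped, while those of Wdr77 and Clns1a came close without overlapping, with 108 FPKM as the lowest Wdr77 value and 107 FPKM as the highest Clns1a value. In iPHet no neighbours in the order overlapped, and the lowest Prmt5 value, 52.8 FPKM, was far over the highest Riok1 value, 18.3 FPKM.

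The RNA level of Prmt5 relative to its partners was lower in iPKO. The Prmt5 to Wdr77 ratio of FPKM was 0.0874, 0.131, 0.0926 and 0.138 in iPKO libraries 1 to 4, against 0.410, 0.464, 0.410 and 0.486 in iPHet libraries 1 to 4. It averaged 0.112 ± 0.0260 in iPKO and 0.442 ± 0.0390 in iPHet (SD, n = 4 each). Against the summed FPKM of the adaptors Clns1a, Riok1 and Coprs, Prmt5 stood at 0.114 ± 0.00368 in iPKO and at 0.521 ± 0.0534 in iPHet (SD, n = 4 each). That ratio ran from 0.110 to 0.118 over the iPKO libraries and from 0.463 to 0.574 over the iPHet libraries. These ratios contain Prmt5 and are given as a description.

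The ratios among the partners themselves did not pass the test. The adaptor sum over Wdr77 was 0.757, 1.19, 0.782 and 1.22 in iPKO libraries 1 to 4, against 0.884, 0.832, 0.838 and 0.847 in iPHet libraries 1 to 4. The iPHet values lay within a narrow band, while the odd-numbered iPKO values lay under it and the even-numbered ones over it. The exact two-sided permutation test gave p = 0.429. Clns1a made up 78.8% ± 1.77 of the adaptor sum in iPKO and 77.3% ± 2.02 in iPHet (SD, n = 4 each, exact permutation p = 0.314). Riok1 made up 13.1% ± 1.93 in iPKO and 13.7% ± 0.623 in iPHet (SD, n = 4 each, exact permutation p = 0.629). Coprs made up 8.05% ± 0.234 in iPKO and 9.06% ± 2.01 in iPHet (SD, n = 4 each, exact permutation p = 0.429).

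**Figure D2:**
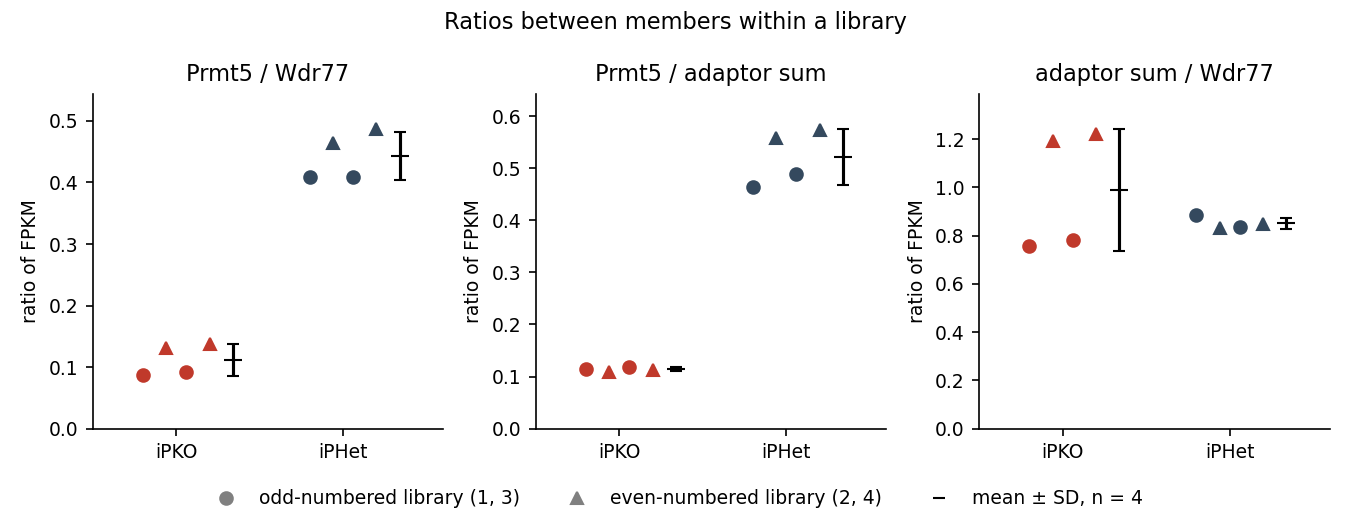
Ratios of FPKM within each library, for 4 iPKO (red) and 4 iPHet (dark) libraries, circles for odd and triangles for even numbers, with mean ± SD. Prmt5 relative to Wdr77 or to the adaptor sum is far lower in every iPKO library, while the adaptor sum relative to Wdr77 splits the iPKO libraries by parity, near 0.77 for odd and 1.21 for even numbers.

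For 3 cofactors the iPKO minus iPHet difference was unlike between odd-numbered and even-numbered libraries. The difference between the even and the odd log2 change was -0.15 for Prmt5 (SE 0.06, limma adjusted p = 0.101). It was -0.50 for Wdr77 (SE 0.04, limma adjusted p = 0.00123), 0.18 for Clns1a (SE 0.04, limma adjusted p = 0.0236) and 0.67 for Coprs (SE 0.12, limma adjusted p = 0.0105). For Riok1 it was -0.19 (SE 0.10, limma adjusted p = 0.209). In 28.5% of all tested genes this difference was called, against 3 of the 5 members. In those 3 the genotypes separated within each parity, in opposite directions, as they did in 16.6% of all tested genes. In mean FPKM, Coprs stood at 8.25 in iPKO and 12.1 in iPHet among odd-numbered libraries, and at 10.8 in iPKO and 9.38 in iPHet among even-numbered ones. Whether a parity pair is 2 repeats of 1 culture is not stated. If so, the test measures the spread between repeats alone. What sets the parities apart is not given in the sources used here. That a parity means the same in both genotypes is taken from the data, not from the labels. If it does not, the difference compares unmatched pairs, and no change of a genotype effect can be read from it.

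**Figure D3:**
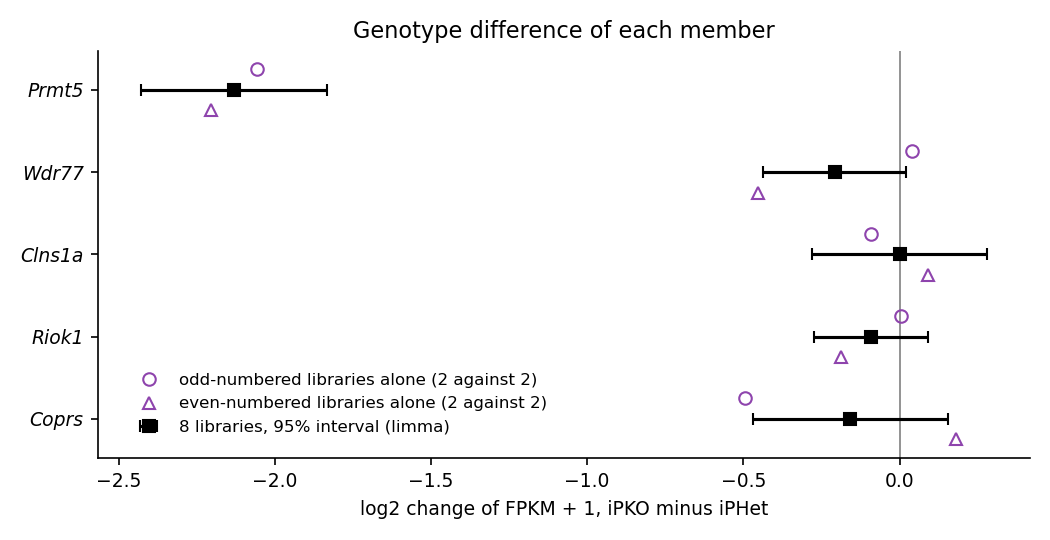
Log2 change of FPKM + 1, iPKO minus iPHet, for each member over all 8 libraries (squares, limma 95% interval) and for odd-numbered (circles) and even-numbered libraries (triangles) alone. Prmt5 lies near -2.1 in all 3, and the odd and even values of Wdr77, Clns1a and Coprs lie on opposite sides of 0, with the odd value of Riok1 at 0.01.

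Among 8140 other protein-coding genes that averaged 5 FPKM or more, the profiles nearest to that of Prmt5 over the 8 libraries were those of Pycr1, Trh, Fkbp11 and Ifrd2. The root mean square log2 differences were 0.48, 0.56, 0.64 and 0.64, each gene being set to 0 at its iPHet mean. The nearest still differed in size, with log2 changes of -1.47, -1.41, -1.24 and -1.23. Pycr1, the last enzyme of proline synthesis, averaged 2.49 ± 0.613 FPKM in iPKO and 8.67 ± 1.80 FPKM in iPHet (SD, n = 4 each). The profile of Riok1 was nearest to that of Mtap, at a root mean square log2 difference of 0.03. Mtap encodes the enzyme that clears methylthioadenosine, a metabolite that inhibits PRMT5, and it averaged 18.9 ± 0.924 FPKM in iPKO and 20.6 ± 2.07 FPKM in iPHet (SD, n = 4 each). The profiles of Wdr77 (nearest Gna12 and D2hgdh), Clns1a (Cherp and Ing5) and Coprs (Taok2 and Suclg1) had neighbours within 0.02 to 0.06 by the same measure. The second nearest to Riok1 was Zfml, also at 0.03.

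Genes on both sides of Prmt5 were examined because the deletion was made at that locus. Besides Prmt5 itself, 7 tested genes start within 100 kb of either of its ends. The nearest of these on either side, Haus4, a subunit of the augmin complex of the spindle, and Lrp10, a lipoprotein receptor relative, were not called. Haus4 averaged 32.3 ± 3.84 FPKM in iPKO and 37.5 ± 5.22 FPKM in iPHet, and Lrp10 5.65 ± 1.33 FPKM in iPKO and 7.49 ± 1.29 FPKM in iPHet (SD, n = 4 each). With the replicate number as a block both were called (limma adjusted p of 0.0210 for Haus4 and 0.0131 for Lrp10). Both were also called with an odd/even term over all libraries (limma adjusted p of 0.0161 for Haus4 and 0.00668 for Lrp10). Neither was called with parity pairs averaged (0.753 for Haus4 and 0.688 for Lrp10) or with the term added to those averages (0.415 and 0.300). An estimated correlation within pairs also left both uncalled (0.692 and 0.595). Mrpl52, a protein of the mitochondrial ribosome whose start lies 90.6 kb from that of Prmt5, fell. It had 9.20, 16.7, 10.8 and 14.7 FPKM in iPKO libraries 1 to 4, against 26.3, 17.8, 23.9 and 17.96 FPKM in iPHet libraries 1 to 4. The gap was wide in the odd-numbered libraries (log2 change -1.25) and small in the even-numbered ones (-0.18).

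The log2 change of Mrpl52 over all libraries was -0.71 (SE 0.20, limma adjusted p = 0.0483). The call held when iPKO 2 was left out (limma adjusted p = 0.0364) and ended when any other single library was left out (0.0616 to 0.110), with the block (0.0997), without a filter on low values (0.0787) and under quantile (0.0582) or median-of-ratios scaling (0.0590). It also ended with parity pairs averaged (0.562), with an odd/even term added to those averages (0.348, and 0.169 over coding genes alone), and with an estimated correlation within pairs (0.322). Slc7a7, an amino acid transporter subunit 108 kb away at its start, had 1.79, 4.37, 1.85 and 4.49 FPKM in iPKO libraries 1 to 4, against 4.50, 8.88, 4.87 and 8.40 FPKM in iPHet libraries 1 to 4. The iPKO values lay under the iPHet values of the same parity, and the even-numbered libraries were higher in both genotypes. Its limma adjusted p was 0.0781, with the block 0.00356, and with an odd/even term over all libraries 0.000131. With parity pairs averaged it was 0.612, and with the term added to those averages 0.203 (0.0470 over coding genes alone). An estimated correlation within pairs gave 0.287. Ajuba, Mmp14 and 4931414P19Rik were not called, at log2 changes of -0.10, 0.05 and 0.25.

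**Figure D4:**
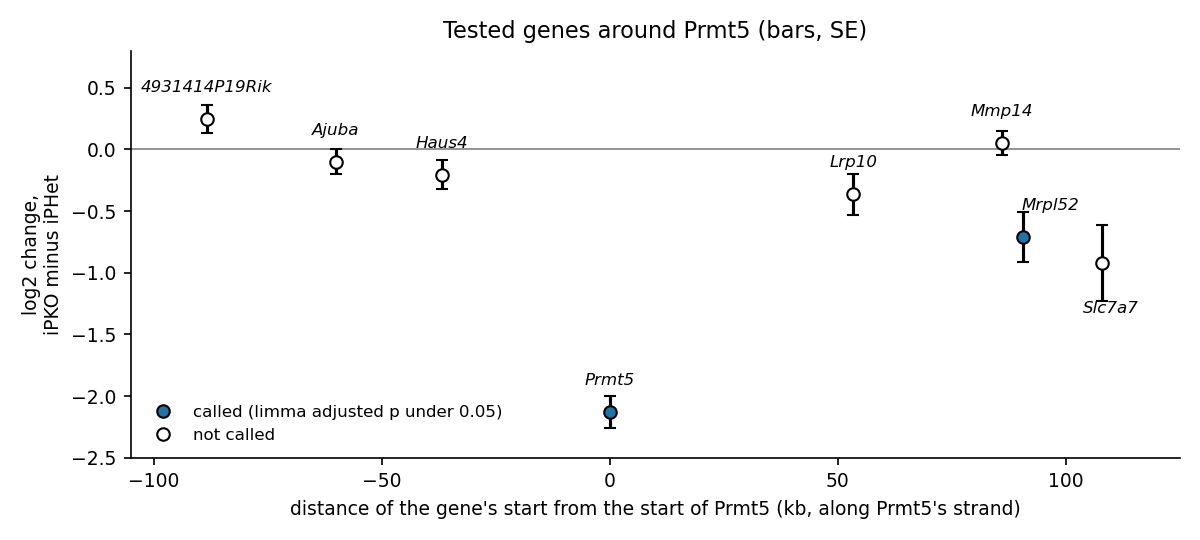
Log2 change, iPKO minus iPHet (bars, SE), of the 8 tested genes that start within 100 kb of either end of Prmt5, by the distance of their start from that of Prmt5 along its strand in kb. Prmt5 at -2.13 lies far under its neighbours, which run from -0.92 for Slc7a7 to 0.25 for 4931414P19Rik.

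The wider set of genes around the enzyme held 47 names in 7 roles, of which 43 passed the filter on low values. Of these 1 rose, 5 fell and 37 were not called. That is 14% called, against 15.8% of all tested genes, and the median log2 change was -0.10 against -0.04. With the replicate number as a block 3 rose and 10 fell, and with parity pairs averaged none of the 6 calls held. With any single library left out, 2 or 3 fell. The difference between the even and the odd change was called in 18 of the 43, against 28.5% of all tested genes.

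Among 3 tested readers that bind methylated arginine through a tudor domain, Smndc1 rose. This splicing factor had 48.1, 65.8, 45.9 and 61.8 FPKM in iPKO libraries 1 to 4, against 34.3, 36.8, 34.6 and 36.0 FPKM in iPHet libraries 1 to 4. Every iPKO library was above every iPHet library, and the even-numbered iPKO libraries were the highest. The log2 change was 0.62 (SE 0.12, limma adjusted p = 0.0124), and the call held with any single library left out. Leaving out a library keeps its close parity twin in the fit, so this could hardly end a call. With parity pairs averaged the limma adjusted p of Smndc1 was 0.496, and with an estimated correlation within pairs 0.128. Snd1, the tudor nuclease relative that binds methylated Sm and Piwi proteins, fell to 37.1 ± 1.62 FPKM in iPKO, against 50.5 ± 7.30 FPKM in iPHet (SD, n = 4 each, limma adjusted p = 0.0288). The call of Snd1 held when iPHet 2 was left out (0.0113) and ended when any other single library was (0.0559 to 0.0728). Tdrd3 was not called, at 6.87 ± 1.05 FPKM in iPKO and 7.84 ± 0.581 FPKM in iPHet (SD, n = 4 each). The readers Tdrd1, Tdrd6 and Tdrkh averaged 0.237, 0.00393 and 0.148 FPKM in iPKO and 0.122, 0.0103 and 0.109 FPKM in iPHet, and were not tested. Tdrd7, at 0.843 FPKM in iPKO and 0.655 FPKM in iPHet, was not tested either.

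Of 9 tested genes of the SMN complex, which loads Sm proteins onto small nuclear RNA, Strap fell and 8 were not called. Strap, a WD-repeat protein, had 42.1, 44.7, 38.6 and 44.5 FPKM in iPKO libraries 1 to 4, against 51.2, 56.4, 52.4 and 56.0 FPKM in iPHet libraries 1 to 4. The genotypes did not overlap, and the log2 change was -0.34 (SE 0.07, limma adjusted p = 0.0132), with a like value in odd (-0.35) and even (-0.33) libraries. The call of Strap held with any single library left out, though the parity twin of that library then stayed in the fit. With parity pairs averaged its limma adjusted p was 0.586, and with an estimated correlation within pairs 0.263. Smn1, the core of the complex, averaged 26.5 ± 3.26 FPKM in iPKO and 23.1 ± 2.50 FPKM in iPHet (SD, n = 4 each, limma adjusted p = 0.264, 0.0254 with the block). Gemin7 averaged 23.9 ± 2.55 FPKM in iPKO and 30.4 ± 8.51 FPKM in iPHet (SD, n = 4 each) and was not called.

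Of 14 tested substrates, Supt5 fell and 13 were not called. Supt5 encodes a transcription elongation factor and stood at 54.2 ± 1.46 FPKM in iPKO and 61.8 ± 1.97 FPKM in iPHet (SD, n = 4 each, limma adjusted p = 0.0420). Its call ended with any single library left out (0.0586 to 0.102) and under quantile (0.126) or median-of-ratios scaling (0.124). Nucleolin, Ncl, the client of Riok1, averaged 95.8 ± 20.4 FPKM in iPKO and 121 ± 16.9 FPKM in iPHet (SD, n = 4 each, limma adjusted p = 0.185, 0.0143 with the block). The splicing regulator Srsf1 averaged 10.6 ± 0.925 FPKM in iPKO and 14.8 ± 2.86 FPKM in iPHet (SD, n = 4 each, limma adjusted p = 0.0632).

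The methylated Sm proteins Snrpb, Snrpd1 and Snrpd3, clients of Clns1a, were not called. Snrpb averaged 115 ± 21.1 FPKM in iPKO and 113 ± 19.3 FPKM in iPHet, and Snrpd1 43.6 ± 14.02 FPKM in iPKO and 44.1 ± 6.83 FPKM in iPHet (SD, n = 4 each). Their changes had opposite signs by parity, with log2 changes of -0.42 in odd-numbered and 0.46 in even-numbered libraries for Snrpb, and of -0.65 in odd-numbered and 0.53 in even-numbered libraries for Snrpd1. The even minus odd difference was called for both (limma adjusted p of 0.000500 and 0.000214). Of the 4 other Sm proteins 0 were called by limma, and 1, Snrpf, had an unadjusted p under 0.05. Snrpf stood at 12.5 ± 2.48 FPKM in iPKO and 17.1 ± 0.740 FPKM in iPHet (SD, n = 4 each, limma adjusted p = 0.0508, 0.0315 with the block). Snrpe and Snrpg had limma adjusted p of 0.839 and 0.358. The median log2 change of these 4 genes was -0.56 in odd-numbered and 0.21 in even-numbered libraries.

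Of 7 other binding partners, Chtop fell and 6 were not called. Chtop, a chromatin and RNA export protein that binds arginine methyltransferases, had 66.5, 62.7, 63.7 and 60.0 FPKM in iPKO libraries 1 to 4, against 83.8, 74.3, 83.3 and 74.6 FPKM in iPHet libraries 1 to 4. The genotypes did not overlap, and the log2 change was -0.32 (SE 0.07, limma adjusted p = 0.0159). The call of Chtop held with any single library left out, where the parity twin of that library stayed in the fit. It ended with parity pairs averaged (limma adjusted p = 0.602) and with an estimated correlation within pairs (0.236). Smarca4, the ATPase of the BAF remodelling complex, averaged 60.5 ± 6.28 FPKM in iPKO and 70.2 ± 9.07 FPKM in iPHet (SD, n = 4 each, limma adjusted p = 0.235, 0.0186 with the block). Mbd3, a subunit of the NuRD complex, averaged 58.6 ± 6.57 FPKM in iPKO and 67.9 ± 5.60 FPKM in iPHet (SD, n = 4 each) and was not called. Prdm1, the germ cell factor that binds PRMT5, averaged 3.38 ± 0.662 FPKM in iPKO and 2.63 ± 0.550 FPKM in iPHet (SD, n = 4 each) and was not called.

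Of 4 genes that govern the methyl donor, Ahcy fell and 3 were not called. Ahcy removes S-adenosylhomocysteine, the product that slows methyltransferases, and stood at 84.1 ± 7.47 FPKM in iPKO and 113 ± 16.8 FPKM in iPHet (SD, n = 4 each, limma adjusted p = 0.0438). Its call held when iPHet 1 was left out (0.0299), ended when any other single library was (0.0637 to 0.106), and ended without a filter on low values (0.0660) and under quantile (0.0999) or median-of-ratios scaling (0.0893). Mat2a, which makes S-adenosylmethionine, averaged 118 ± 16.5 FPKM in iPKO and 145 ± 29.8 FPKM in iPHet (SD, n = 4 each, limma adjusted p = 0.251, 0.0197 with the block). Of the 2 other methyltransferases 0 were called by limma, and 1, Prmt10, had an unadjusted p under 0.05. Prmt7, which places single methyl groups, averaged 31.4 ± 4.46 FPKM in iPKO and 28.8 ± 2.42 FPKM in iPHet, and was not called. Prmt10, now named Prmt9, the other enzyme with symmetric activity, averaged 6.53 ± 0.529 FPKM in iPKO and 7.52 ± 0.248 FPKM in iPHet (SD, n = 4 each), and was not called (limma adjusted p = 0.121). All 6 called genes of these roles lost their calls with parity pairs averaged or with an estimated correlation within those pairs. Smn1, Ncl, Snrpf, Smarca4 and Mat2a, given above as under 0.05 with the block, were not called in those fits either. For Mat2a the limma adjusted p was 0.730 with parity pairs averaged and 0.538 with the correlation.

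**Figure D5:**
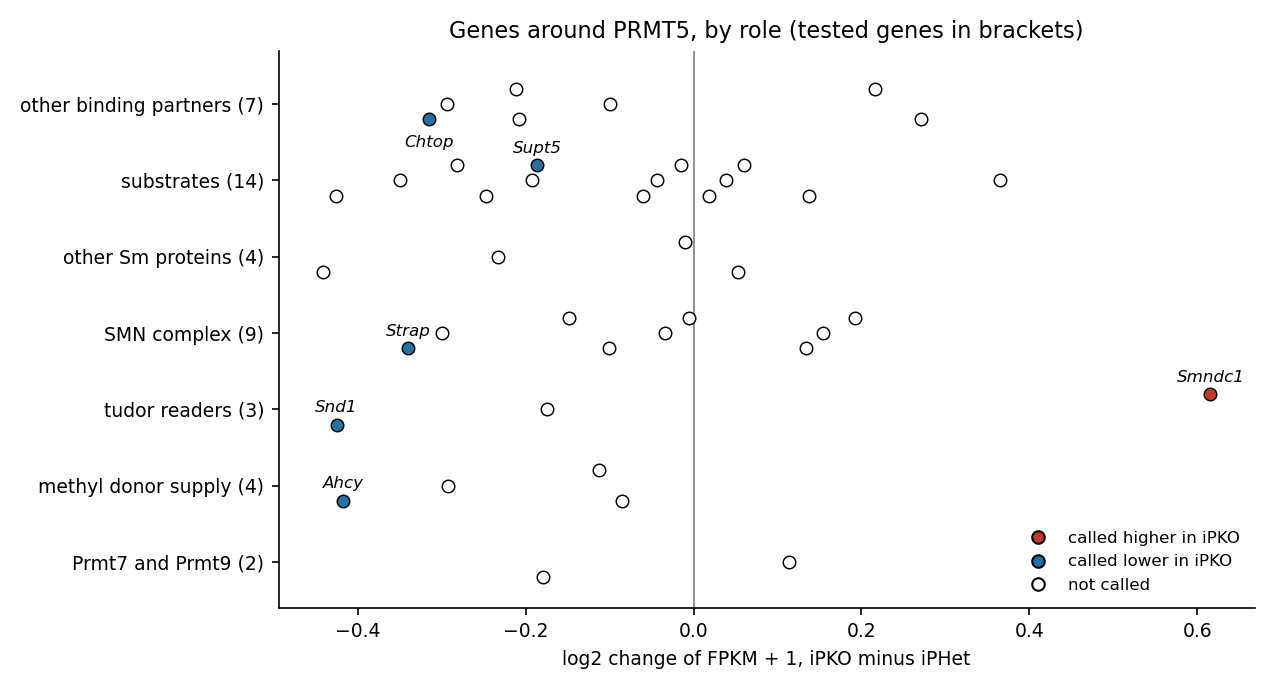
Log2 change of FPKM + 1, iPKO minus iPHet, of the 43 tested genes around PRMT5, 1 row per role with the number tested in brackets. Filled points passed limma at an adjusted p under 0.05, with Smndc1 higher at 0.62 and Chtop, Supt5, Strap, Snd1 and Ahcy lower, between -0.43 and -0.19.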

How the data were processed

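FPKM of each gene, made by the authors separately for each library, came with a lower and an upper bound, per the file headers. Reads of 100 bases in pairs were made, per the labels' protocols, and the submitters' processing notes name Trimmomatic and mm10. Aligner, quantifier and strand setting were not given in the sources used here. The bounds were not used as errors, since 26.4% to 33.2% of genes at 5 FPKM or more lay outside their own bounds. Rows of an identifier were summed. Gene types came from GENCODE vM21, which held 96.2% of identifiers, and sequences from RefSeq (GRCm38.p6).

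Log2(FPKM + 1) values of the 12462 genes whose mean reached 1 FPKM in iPKO or iPHet were fitted with limma 3.58.1 (intensity trend, R 4.3.3), and calls are at a Benjamini-Hochberg adjusted p under 0.05 over all of them. The pseudocount understates changes of low genes. Permutation tests are exact over libraries. The members and lists were chosen with earlier results of these data known. Named genes were all members, the 3 genes of each role with the smallest p, all called genes of a role, overlapping genes, neighbours within 100 kb, and the nearest profiles. Snrpb, Snrpd1, Snrpd3 and Prdm1 were named outside that rule, as were the low tudor readers and genes named for an odd/even difference, after their values were seen. The ratio of Prmt5 to the adaptor sum, the odd/even ratios and the fit of the odd/even difference were added after seeing the data. The scripts were tested on simulated data.

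Deviations from the group means correlated at 0.104, 0.162, 0.204 and 0.107 between libraries of the same number, so by the limit of 0.1 the numbers pair the libraries, a pairing taken from the data, not the labels. Libraries that shared parity but not the number correlated at 0.077 to 0.124, which overlaps those values, so number and parity are not separated by this check. Alternatives were the replicate block, an odd/even term, pair averages, an estimated correlation within pairs (0.839), a pseudocount of 0.1, other filters and scalings, protein-coding genes only, and leaving out each library.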

Additional observations from a re-analysis of the deposited data

Results flagged for a closer look

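Of 54 members, tested pathway genes and neighbours of Prmt5, 23 had an iPKO minus iPHet log2 change that differed between the even-numbered and the odd-numbered libraries (limma, adjusted p under 0.05 over all genes). Among the pathway genes these were 18 of 43, or 41.9%, and among the members 3 of 5, against 28.5% of all tested genes. The even minus odd difference was -0.50 for Wdr77, 0.18 for Clns1a and 0.67 for Coprs. All 7 Sm proteins were among the 23. The difference was 0.88 for Snrpb, 1.18 for Snrpd1, 0.55 for Snrpd3, 1.47 for Snrpd2, 0.69 for Snrpe, 0.39 for Snrpf and 0.52 for Snrpg. Of the other substrates, Lsm4 had 1.04, the ribosomal protein gene Rps10 1.06, Coil -0.53 and Srsf1 -0.57. In the SMN complex it was 0.42 for Gemin2, -0.17 for Gemin4, 0.53 for Gemin6, 0.68 for Gemin7 and 0.29 for Ddx20. It was 0.36 for the tudor reader Smndc1 and -0.17 for Mat2a. Among the neighbours of Prmt5 it was 1.07 for Mrpl52 and 0.39 for Mmp14. Whatever sets the parities apart, its part in these differences was not tested. The labels do not say that a parity means the same in both genotypes. In 120 groups of 4 libraries, 0 had a single library set apart from the other 3. With the libraries in close parity pairs, an extreme value tends to have a near twin. The check could therefore hardly flag a library, and no conclusion is drawn from it.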

How the results depend on the processing

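The fall of Prmt5 kept its direction under every alternative run and lost its call in 2, the pair averages (-2.13, limma adjusted p = 0.191) and the pair averages with an odd/even term (-2.13, 0.0809). With the replicate number as a block, Prmt5 stayed called (limma adjusted p = 0.00185), 1355 genes were called higher and 2072 lower, against 785 and 1188 without it, and 3 pathway genes were higher and 10 lower. The odd/even term gave 1908 and 2821 genes, and 5 and 14 of the pathway. Pair averages gave 5 and 2 genes, with the term 4 and 2, and with the term over coding genes alone 81 and 117. An estimated correlation within pairs gave 23 and 29. In these 4 fits 0 pathway genes were called. Without a filter 2 pathway genes were higher, and with quantile or median-of-ratios scaling 3 were lower. Those scalings put the median log2 change of all genes at -0.01 and 0.01, against -0.04.

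In odd-numbered and even-numbered libraries alone the log2 change was 0.0405 and -0.45 for Wdr77 and 0.00617 and -0.19 for Riok1. It was -0.49 and 0.18 for Coprs, and -0.0913 and 0.0923 for Clns1a. The adaptor sum over Wdr77 differed by -0.0914 in odd libraries, the Riok1 share by 1.24 percentage points in odd and the Coprs share by 0.718 in even ones. In the other parity each lay further apart, in the opposite direction. In even libraries the adaptor sum over Wdr77 averaged 1.21 in iPKO and 0.840 in iPHet, and the Riok1 share 11.6% and 13.9%. In odd libraries the Coprs share averaged 7.97% in iPKO and 10.7% in iPHet.

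With each library left out in turn, Prmt5 ranged from -2.21 to -2.06, Wdr77 from -0.26 to -0.15, Clns1a from -0.0701 to 0.0759, Riok1 from -0.15 to -0.04 and Coprs from -0.23 to -0.06. Exact permutation p was 0.0286 throughout for Prmt5, 0.143 to 0.286 for Wdr77, 0.514 to 0.8286 for Clns1a, 0.0857 to 0.6 for Riok1 and 0.229 to 0.657 for Coprs. The Riok1 share differed by -1.26 to 0.180 percentage points. Genes called higher ranged from 522 to 591 and lower from 742 to 861, and pathway genes lower from 2 to 3, with 1 higher throughout. Snrpe ranged from -0.0580 (without iPKO 2) to 0.150 and Mmp14 from -0.00951 (without iPKO 4) to 0.105. The cause of these changes was not tested. A library left out keeps its close parity twin in the fit, so these ranges do not cover the loss of a whole pair. Depth is unknown, so counting error cannot be given.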
